A study of Mus musculus with 14 samples.

Results

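Monocyte and macrophage marker genes were followed in mouse lymph-node dendritic cells (DCs) sorted by whether they had been labelled through a CD40 contact with T cells. The set holds 37 gene symbols that mark monocytes, macrophages or mononuclear phagocytes in general, taken by name from the table of expected counts (estimated reads per gene), which lists 23420 symbols. All 37 were present in the table, and 32 of them had enough counts to be tested. The libraries were made with Smart-seq2, a full-length cDNA method for few cells, from 150 sorted cells each and sequenced as paired reads of 38 bp.

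In the LIPSTIC method used here, a sortase enzyme fused to CD40 ligand on a T cell attaches a biotin-bearing peptide to a pentaglycine (G5) tag on CD40 of a touching cell. The 6 biotin-positive libraries were endogenous DCs that carried biotin. The 6 biotin-negative libraries were endogenous DCs from the same kind of mice without biotin. These C57BL/6 recipients were Cd40G5/G5 (listed among the characteristics as G5-Cd40+/+) and had received Cd40G5/G5 DCs pulsed with OVA323-339 under the skin of the footpad. After 18 h they received CD40lgSrtA/Y CD4-Cre OT-II T cells, which carry the sortase fusion under a Cre driven by Cd4. Biotin-LPETG was given 46 h after the T cells, and popliteal lymph nodes were taken at 48 h. The 2 Cd40-null libraries came from C57BL/6 Cd40-/- mice given WT DCs and WT OT-II T cells under the same schedule, so genotype and transferred cells differed together in that group. All DCs were sorted as MHC-IIhi, CD11c+ (CD11c-int in the characteristics), CD11b+ and XCR1-. The ages of the mice, and whether libraries came from separate mice, are not given, so every p-value refers to variation among these libraries, which may be technical.

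Monocytes are blood phagocytes that enter inflamed tissue and draining lymph nodes, where they can become macrophages or acquire DC-like surface markers. Lymph nodes also hold resident macrophages that take up lymph-borne particles and dying cells. Because CD11c, CD11b and MHC class II are shared by DCs and by activated monocytes and macrophages, genes such as those for lysozyme, complement C1q and the scavenger receptor CD163 are used to tell the phagocytes apart from DCs. In bulk libraries of this kind, fewer cells of a type and less RNA per cell cannot be told apart.

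Total counts ran from 14518099 to 33260704 per library. Cd40, the targeted gene, averaged 1062 ± 163 CPM (counts scaled to a common library total after TMM correction) in biotin-positive libraries, 511 ± 78.7 CPM in biotin-negative libraries and 63.7 ± 14.7 CPM in Cd40-null libraries (SD, n = 6, 6 and 2). It was lowest in the Cd40-null libraries but not absent, and a count over the whole gene is no check of the deleted segment. Between the biotin groups, which share a genotype, Cd40 was 2.08-fold higher in biotin-positive libraries (adjusted p = 5.6e-05). All 10 genes of a list of core DC genes had counts in each group, with summed levels of 2371 to 4025 CPM in biotin-positive, 4696 to 8341 CPM in biotin-negative and 3948 to 4992 CPM in Cd40-null libraries. The number of genes with at least 1 count differed between the biotin groups without overlap, at 13090 to 13455 in biotin-positive and 14225 to 15742 in biotin-negative libraries. It was 13113 and 13596 in the Cd40-null libraries. The share of counts on Rn45s, the precursor of ribosomal RNA, also separated the biotin groups, at 15.0% to 19.5% in biotin-positive and 19.6% to 21.5% in biotin-negative libraries, and was 18.3% and 20.7% in Cd40-null libraries. The part of that share in the marker differences was not tested.

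Between biotin-positive and biotin-negative DCs, 15 of the 32 tested monocyte and macrophage markers were lower in biotin-positive libraries at an edgeR adjusted p under 0.05, 1 was higher and 16 were not called. Over all 14217 genes tested, 7.75% were called, 4.05% lower and 3.7% higher. At an unadjusted p under 0.05, 22 markers were lower, against 11.8% of all tested genes, and 1 was higher, against 9.21%. DESeq2 called 19 of the markers, against 11.2% of tested genes, and the voom method of limma called 11, against 8.99%. A tested marker had to reach 0.529 CPM in at least 2 libraries. The markers reached that level in at least 2 libraries for 23 genes in the biotin-positive, 30 in the biotin-negative and 23 in the Cd40-null group, so part of the markers passed the filter only through groups in which they were high. The 9 tested markers that did not reach it in at least 2 biotin-positive libraries (Ace, Cd300e, Cd5l, F13a1, Ly6c1, Ms4a7, Siglec1, Trem2 and Treml4) were low there by this criterion, and 3 of them were called lower. Of the 23 that did reach it, 12 were lower, 1 was higher and 10 were not called, with a median log2 fold change of -1.84, against -0.03 over all tested genes. These counts and medians describe markers that passed a filter on level and support nothing by themselves. When the number of detected genes entered the model as a covariate, 0 of 32 markers and 11 genes of all tested (0.0774%) were called. That number separates the biotin groups completely, so the covariate and the biotin label cannot be told apart.

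**Figure D1:**
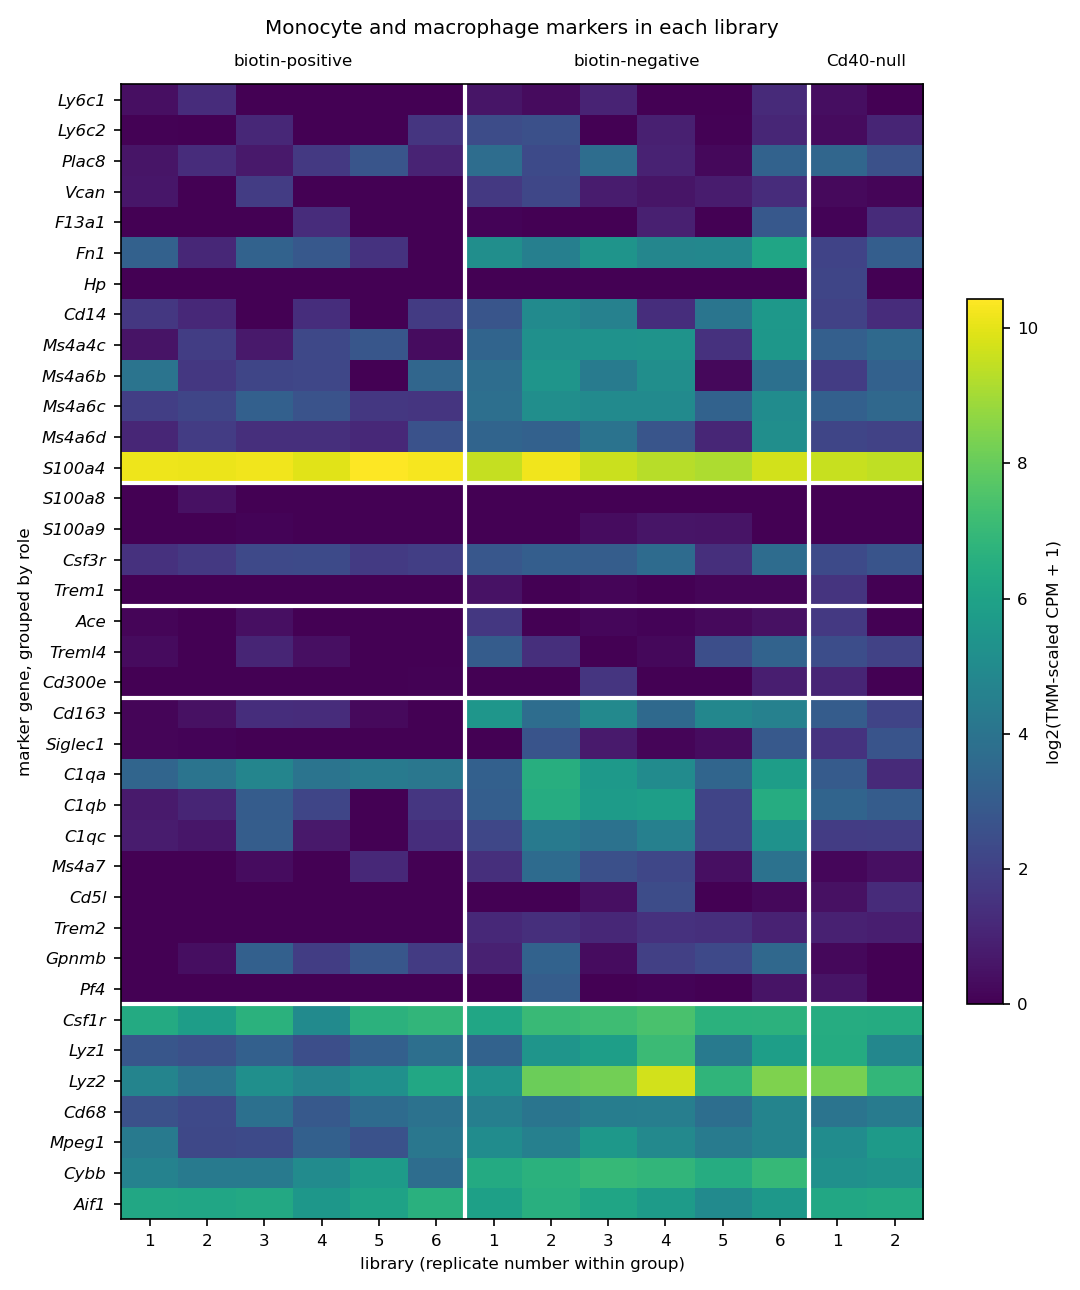
Levels of the 37 markers (rows, grouped by role from classical monocyte at the top to general mononuclear phagocyte at the bottom) in the 14 libraries (columns, by group and replicate number), as log2(TMM-scaled CPM + 1) on the colour scale. Fn1, Cd163, Trem2 and Cybb are brighter in the 6 biotin-negative libraries than in the 6 biotin-positive ones, while S100a4 is bright throughout and brightest in biotin-positive libraries.

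Among tissue macrophage markers, 6 of the 9 tested were lower in biotin-positive libraries (Cd163, Trem2, C1qb, C1qc, Siglec1 and Ms4a7), 3 were not called and none was higher. Over all tested genes, 4.05% were lower. Trem2, Siglec1, Ms4a7 and the uncalled Cd5l did not reach the filter level in at least 2 biotin-positive libraries. These passed the filter only through groups in which they were higher, so the count of lower markers supports nothing by itself. Cd163, which encodes the haemoglobin-haptoglobin scavenger receptor of macrophages (GRCm38 chr6:124304636-124330529), stood at 0 to 1.58 CPM in biotin-positive libraries (median 0.292) and at 10.9 to 43.5 CPM in biotin-negative libraries (median 25.4). The biotin groups did not overlap, and the lowest biotin-negative library exceeded the highest biotin-positive one. Cd163 was 40.3-fold lower in biotin-positive libraries (log2 fold change -5.33 ± 0.76 SE, adjusted p = 0.000267). The Cd40-null libraries, at 7.28 and 3.36 CPM, lay between the biotin groups.

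The bases just before the transcription start of Cd163 are shown because it had the largest fold change among markers with more than 3 counts in every group. Sequences here are from the RefSeq annotation of GRCm38.p6, 5′ to 3′ on the gene's own strand, and capitals mark the word GGAAGT or its reverse complement ACTTCC. That word contains the GGAA core recognised by ETS-family factors such as PU.1, the product of Spi1, a transcription factor on which macrophage development depends. The Cd163 sequence, from chr6:124304401-124304650 on the plus strand, holds no such word. The gene span of Cd163 given above starts slightly upstream of the start used for this sequence. The last of the printed bases therefore lie inside that span.
Cd163: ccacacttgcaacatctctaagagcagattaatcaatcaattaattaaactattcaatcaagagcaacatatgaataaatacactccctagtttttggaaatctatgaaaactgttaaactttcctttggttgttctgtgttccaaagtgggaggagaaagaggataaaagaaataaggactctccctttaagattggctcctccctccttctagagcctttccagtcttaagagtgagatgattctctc

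Trem2, a lipid-sensing receptor of tissue macrophages and microglia (chr17:48346401-48352276), had no count in any of the 6 biotin-positive libraries. It had 0.974 to 1.80 CPM (17 to 41 counts) in biotin-negative libraries, with a median of 1.47 CPM. Every biotin-negative library therefore held the transcript, at low level, and no biotin-positive library did. With a floor of 3 counts over the whole biotin-positive group (0.0261 CPM), Trem2 was at least 55.4-fold lower in biotin-positive libraries (adjusted p = 0.00303). This bound covers counting error only, not variation between libraries. The Cd40-null libraries had 0.925 and 0.826 CPM, just below the lowest biotin-negative library.

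C1qa, C1qb and C1qc encode the chains of complement C1q, which macrophages secrete and which binds antibody complexes and dying cells. The genes are neighbours on chromosome 4, with 3600 bp between C1qb and C1qc and 2979 bp between C1qc and C1qa. C1qb had 0 to 7.17 CPM in biotin-positive libraries (median 1.63) and 3.37 to 86.7 CPM in biotin-negative libraries (median 54.3). The lowest biotin-negative library, at 3.37 CPM, lay inside the biotin-positive range and the next, at 7.79 CPM, just above it. The other 4 were at 51.7 CPM or above. C1qb was 20.5-fold lower in biotin-positive libraries (log2 fold change -4.36 ± 0.96, adjusted p = 0.0106), a call that ended with voom (adjusted p = 0.111).

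C1qc had 0 to 7.36 CPM in biotin-positive libraries (median 0.687) and 3.37 to 38.6 CPM in biotin-negative libraries (median 16.6). A single biotin-positive library, replicate 3, made the groups overlap. C1qc was 9.34-fold lower in biotin-positive libraries (log2 fold change -3.22 ± 0.92, adjusted p = 0.0408), a call that ended when any of biotin-positive replicates 1, 2, 4 and 6 or biotin-negative replicates 2, 3, 4 and 6 was left out (adjusted p up to 0.0993), and with no filter on low counts (adjusted p = 0.0618).

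C1qa had 9.44 to 26.1 CPM in biotin-positive libraries (median 15.9) and 8.11 to 93.1 CPM in biotin-negative libraries (median 39.8). The ranges overlapped, with 2 biotin-negative libraries below 10 CPM, and C1qa was not called (log2 fold change -1.28 ± 0.51, adjusted p = 0.148). The level of C1qa relative to C1qb was 3.64 to 13.9 in the 5 biotin-positive libraries with C1qb counts, 0.561 to 2.86 in biotin-negative libraries, and 0.749 and 0.194 in Cd40-null libraries. These ranges do not overlap between the biotin groups, and no test of the ratio was made. The biotin-positive ratios rest on 12 to 109 C1qb counts per library, and the highest of them, 13.9 and 13.8, on 12 and 18 counts. The transcripts of the 3 C1q genes share no 38-base word with one another or with any other annotated transcript, so short reads can be assigned to each.

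The promoter sequences of the pair that was called are shown with the same word in capitals. That of C1qb is chr4:136886201-136886450 and that of C1qc chr4:136892915-136893164, both on the minus strand, and the word begins 53 bases before the start of C1qb and 195 bases before the start of C1qc. The aligned sequences are 43.5% identical.
C1qb: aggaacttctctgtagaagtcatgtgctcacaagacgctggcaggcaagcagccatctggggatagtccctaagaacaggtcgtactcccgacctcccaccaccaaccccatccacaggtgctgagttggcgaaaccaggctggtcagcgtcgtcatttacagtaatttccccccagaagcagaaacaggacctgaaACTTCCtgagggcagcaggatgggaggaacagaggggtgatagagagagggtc
C1qc: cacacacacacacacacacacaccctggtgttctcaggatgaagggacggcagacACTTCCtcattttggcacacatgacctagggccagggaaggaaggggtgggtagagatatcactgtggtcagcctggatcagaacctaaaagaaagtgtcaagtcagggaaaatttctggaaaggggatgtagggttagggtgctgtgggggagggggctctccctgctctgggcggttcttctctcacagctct

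Siglec1, the sialic-acid receptor CD169 of lymph-node sinus macrophages, had 3 counts in all over the 6 biotin-positive libraries (0 to 0.113 CPM, median 0). In biotin-negative libraries it had 0 to 6.59 CPM (median 0.479). The groups overlapped at 0, and replicates 2 and 6 held most of the 276 biotin-negative counts. The level in biotin-negative libraries was 82.2 times that in biotin-positive ones by summed counts, with a 95% exact interval of 27.8 to 401 for counting error only, and the test gave an adjusted p of 0.0276. The call ended when any of biotin-positive replicates 3, 4 and 6 or biotin-negative replicates 2 and 6 was left out (adjusted p up to 0.0640), with voom (0.147) and with limma on the deposited signal (0.237).

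Ms4a7, a tetraspan membrane protein of tissue macrophages, had 0 to 1.30 CPM in biotin-positive libraries (median 0) and 0.358 to 14.1 CPM in biotin-negative libraries (median 4.27). The groups overlapped through biotin-positive replicate 5 and biotin-negative replicate 5. Ms4a7 was 21.4-fold lower in biotin-positive libraries (log2 fold change -4.42 ± 1.32) at an adjusted p of 0.0495, and the call ended in 12 of the 14 fits that left out a library, all but those without biotin-positive or biotin-negative replicate 5 (adjusted p up to 0.108). It also ended without the robust option of the fit (adjusted p = 0.0505).

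Cd5l, a secreted protein of resident macrophages, had 0 counts in the 6 biotin-positive libraries and 0 to 4.36 CPM in biotin-negative libraries (median 0.0859). Biotin-negative replicate 4 supplied 75 of the 85 counts, and the gene was not called (adjusted p = 0.0865). Gpnmb, a glycoprotein of lipid-laden macrophages that DCs also express, had 0 to 8.15 CPM in biotin-positive libraries and 0.281 to 10.4 CPM in biotin-negative libraries and was not called (adjusted p = 0.875). Pf4, a chemokine of platelets and some resident macrophages, was too low to be tested. It had no count in biotin-positive libraries, and 185 of its 194 counts in the biotin-negative group fell in replicate 2.

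The general mononuclear phagocyte genes divided into 4 that were lower in biotin-positive libraries (Cybb, Lyz1, Lyz2 and Mpeg1) and 3 that were not called (Cd68, Csf1r and Aif1). Cybb, the catalytic subunit of the phagocyte NADPH oxidase, had the smallest p of all 32 tested markers. It stood at 12.4 to 51.4 CPM in biotin-positive libraries (median 21.0) and at 82.8 to 127 CPM in biotin-negative libraries (median 108). The groups were well apart, and Cybb was 4.09-fold lower in biotin-positive libraries (log2 fold change -2.03 ± 0.27, adjusted p = 0.000173). Both Cd40-null libraries, at 37.1 and 39.7 CPM, fell inside the biotin-positive range.

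Lyz2 encodes the lysozyme of myeloid cells and Lyz1 its paralogue, best known from Paneth cells of the gut. The genes lie 5522 bp apart on chromosome 10. Lyz2 had 15.1 to 75.3 CPM in biotin-positive libraries (median 30.4) and 39.1 to 837 CPM in biotin-negative libraries (median 282). The ranges touched only through biotin-positive replicate 6 and biotin-negative replicate 1. Lyz2 was 8.84-fold lower in biotin-positive libraries (log2 fold change -3.14 ± 0.61, adjusted p = 0.00515).

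Lyz1 had 4.68 to 13.1 CPM in biotin-positive libraries (median 6.99) and 8.75 to 138 CPM in biotin-negative libraries (median 49.6), and the same pair of libraries made the groups overlap. It was 7.11-fold lower in biotin-positive libraries (log2 fold change -2.83 ± 0.53, adjusted p = 0.00282), a call that ended with voom (adjusted p = 0.0810). The ratio of Lyz1 to Lyz2 counts was 0.174 to 0.337 in biotin-positive, 0.156 to 0.224 in biotin-negative and 0.228 to 0.273 in Cd40-null libraries. Of the 38-base words of Lyz1 transcripts, 26.3% also occur in Lyz2, so the separation of the pair by short reads is uncertain.

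The promoters of the lysozyme pair, which moved together, are shown with the word in capitals, at chr10:117292869-117293118 for Lyz1 and chr10:117282273-117282522 for Lyz2, both on the minus strand. The sequences are 79.4% identical over 252 aligned columns, and in both the word begins 100 bases before the start.
Lyz1: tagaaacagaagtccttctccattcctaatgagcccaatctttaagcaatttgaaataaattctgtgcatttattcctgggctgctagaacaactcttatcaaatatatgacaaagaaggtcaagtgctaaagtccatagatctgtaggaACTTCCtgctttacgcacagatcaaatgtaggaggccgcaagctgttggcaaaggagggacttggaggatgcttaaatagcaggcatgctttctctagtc
Lyz2: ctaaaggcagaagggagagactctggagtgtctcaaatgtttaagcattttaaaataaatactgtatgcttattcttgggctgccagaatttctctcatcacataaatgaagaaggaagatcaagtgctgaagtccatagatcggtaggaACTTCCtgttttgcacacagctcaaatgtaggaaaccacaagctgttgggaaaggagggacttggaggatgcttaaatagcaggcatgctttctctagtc

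Over all promoters of 250 bases in the RefSeq table, 6485 of 32851 (19.7%) hold GGAAGT or ACTTCC. Of the 36 promoters that matched 30 of the 37 markers, 18 (50%) hold it, and 17 markers have it in at least 1 promoter. A match is a description of the letters and not evidence of binding. C1qa, Cd14, Csf1r, Fn1, Hp, Ms4a6d and Siglec1 were not matched to that table.

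Mpeg1, the pore-forming perforin-2 of phagocytes, had 3.86 to 17.9 CPM in biotin-positive libraries (median 6.67) and 19.4 to 46.8 CPM in biotin-negative libraries (median 26.9). The groups did not overlap, with a gap between 17.9 and 19.4 CPM. Mpeg1 was 3.14-fold lower in biotin-positive libraries (log2 fold change -1.65 ± 0.38, adjusted p = 0.0131).

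Cd68, a lysosomal membrane glycoprotein, had 3.92 to 14.4 CPM in biotin-positive libraries (median 8.96) and 12.6 to 24.9 CPM in biotin-negative libraries (median 20.9). It missed the threshold (log2 fold change -1.08 ± 0.32, adjusted p = 0.0514) and was called with 6 other settings, at adjusted p down to 0.0159, and when biotin-positive replicate 3 or 6 or biotin-negative replicate 5 was left out. Csf1r, the receptor for the macrophage growth factor CSF1, had 30.4 to 117 CPM in biotin-positive and 71.3 to 170 CPM in biotin-negative libraries, with broad overlap and no call (log2 fold change -0.57 ± 0.27, adjusted p = 0.237). Aif1, the actin-binding protein IBA1, had 44.7 to 97.5 CPM in biotin-positive and 30.9 to 94.7 CPM in biotin-negative libraries and was not called (adjusted p = 0.562).

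**Figure D2:**
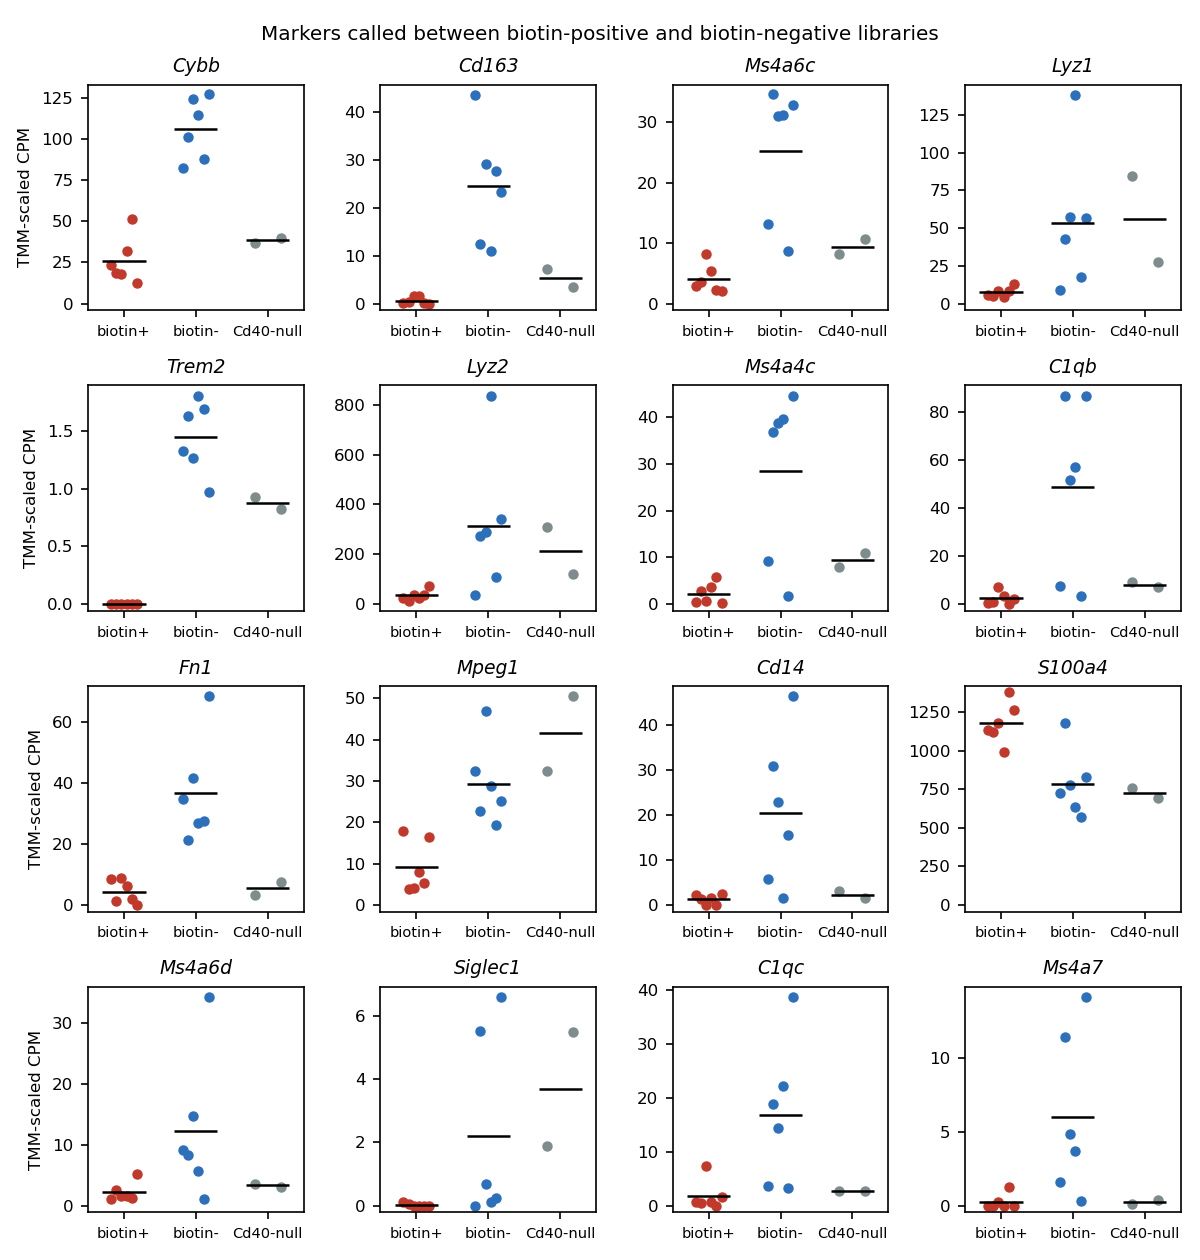
Levels in TMM-scaled CPM (vertical axes, linear, each panel with its own scale) of the 16 markers called between biotin-positive and biotin-negative libraries, with 1 point per library and a bar at the group mean. Biotin-positive libraries lie below biotin-negative libraries without overlap for Cybb, Cd163, Ms4a6c, Trem2, Fn1 and Mpeg1, and S100a4 is the panel in which most biotin-positive points lie above.

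Among classical monocyte and phagocyte-recruitment markers, 5 of the 12 tested were lower in biotin-positive libraries (Ms4a6c, Ms4a4c, Fn1, Cd14 and Ms4a6d), 1 was higher (S100a4) and 6 were not called. Genes of the Ms4a family encode membrane proteins with 4 passes and are clustered on chromosome 19. Ms4a6c had 2.01 to 8.15 CPM in biotin-positive libraries (median 3.16) and 8.69 to 34.6 CPM in biotin-negative libraries (median 31.1). The groups did not overlap, although replicate 5 of the biotin-negative group came close to the biotin-positive maximum. Ms4a6c was 6.29-fold lower in biotin-positive libraries (log2 fold change -2.65 ± 0.42, adjusted p = 0.000719). Of its 38-base words, 55.3% occur in other annotated transcripts, chiefly those of BE692007, which has no line of its own in the table, so the counts can include that locus.

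Ms4a4c had 0.258 to 5.91 CPM in biotin-positive libraries (median 1.71) and 1.79 to 44.5 CPM in biotin-negative libraries (median 37.7). Only biotin-negative replicate 5 lay within the biotin-positive range. Ms4a4c was 12.2-fold lower in biotin-positive libraries (log2 fold change -3.61 ± 0.78, adjusted p = 0.00745), a call that ended with voom (adjusted p = 0.0876).

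Ms4a6d had 1.19 to 5.21 CPM in biotin-positive libraries (median 1.64) and 1.18 to 34.4 CPM in biotin-negative libraries (median 8.78). Replicate 5 of the biotin-negative group had the lowest value of all 12 libraries, so the groups overlapped. Ms4a6d was 5.39-fold lower in biotin-positive libraries (log2 fold change -2.43 ± 0.63, adjusted p = 0.0252), and the call ended when any of biotin-positive replicates 1, 3 and 4 or biotin-negative replicates 3 and 6 was left out (adjusted p up to 0.0949), with voom (0.136) and with limma on the deposited signal (0.0573). Ms4a6b, a further member of the cluster, ran from 0 to 14.9 CPM in biotin-positive and from 0.153 to 42.6 CPM in biotin-negative libraries and was not called (log2 fold change -1.84 ± 0.95, adjusted p = 0.294).

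Fn1 encodes fibronectin, an adhesion protein that monocytes and macrophages produce. It had 0 to 8.81 CPM in biotin-positive libraries (median 4.08) and 21.5 to 68.3 CPM in biotin-negative libraries (median 31.1). The groups did not overlap, and Fn1 was 8.31-fold lower in biotin-positive libraries (log2 fold change -3.05 ± 0.70, adjusted p = 0.0122). The Cd40-null libraries had 3.30 and 7.64 CPM, within the biotin-positive range.

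Cd14, the co-receptor for lipopolysaccharide, had 0 to 2.53 CPM in biotin-positive libraries (median 1.42) and 1.57 to 46.4 CPM in biotin-negative libraries (median 19.2). A single biotin-negative library, replicate 4, lay within the biotin-positive range. Cd14 was 16.2-fold lower in biotin-positive libraries (log2 fold change -4.01 ± 0.96, adjusted p = 0.0154), a call that ended with voom (adjusted p = 0.0525).

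S100a4, a calcium-binding protein of monocytes, fibroblasts and many motile cells, was the exception in direction. It had 988 to 1377 CPM in biotin-positive libraries (median 1155) and 569 to 1179 CPM in biotin-negative libraries (median 752). The groups overlapped only because biotin-negative replicate 2, at 1179 CPM, reached the level of biotin-positive libraries. S100a4 was 1.5-fold higher in biotin-positive libraries (log2 fold change 0.58 ± 0.14, adjusted p = 0.0163). It was also the most abundant marker per length of transcript, at 2363 CPM per kb in biotin-positive libraries, 1579 CPM per kb in biotin-negative libraries and 1458 CPM per kb in Cd40-null libraries, against 27.0, 240 and 164 CPM per kb for Lyz2 in the same groups. Of its 38-base words, 48.5% also occur in the annotated locus Gm42674, which has no line in the table.

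Several classical monocyte markers had few counts in all groups. Ly6c2, which with Ly6c1 encodes the Ly6C antigen, had 0 to 2.06 CPM in biotin-positive, 0 to 4.80 CPM in biotin-negative and 0.241 to 1.14 CPM in Cd40-null libraries. Ly6c1, Vcan, encoding the matrix proteoglycan versican, and F13a1, encoding a subunit of clotting factor XIII, ran from 0 to 2.63 CPM in biotin-positive and from 0 to 6.30 CPM in biotin-negative libraries. None of these 4 was called, with adjusted p between 0.596 and 0.874. Plac8, a small cysteine-rich protein of monocytes and plasmacytoid DCs, had 0.509 to 5.66 CPM in biotin-positive and 0.153 to 12.4 CPM in biotin-negative libraries and was not called (log2 fold change -1.70 ± 0.83, adjusted p = 0.257). Hp, encoding haptoglobin, had no count in any of the 12 biotin-sorted libraries and 87 counts in Cd40-null replicate 1, and was not tested.

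Markers shared with granulocytes gave little signal. Csf3r, the receptor for the granulocyte growth factor G-CSF, was the only one tested, with 1.81 to 4.04 CPM in biotin-positive libraries (median 2.61) and 1.69 to 12.03 CPM in biotin-negative libraries (median 7.62). Biotin-negative replicate 5 lay below all biotin-positive libraries while the other 5 lay above them, and Csf3r was not called (log2 fold change -1.43 ± 0.47, adjusted p = 0.0719). Without that library Csf3r was called lower in biotin-positive libraries (adjusted p = 0.0186), as it was with DESeq2 (adjusted p = 0.0177). S100a8 and S100a9, which form the calprotectin complex of neutrophils and monocytes, and Trem1, an activating receptor of both, were too low to be tested. S100a8 had 6 counts in biotin-positive replicate 2 and none in the other 13 libraries, and S100a9 had 1 count in the biotin-positive, 24 in the biotin-negative and 0 in the Cd40-null group. Trem1 had 0 counts in the biotin-positive group, 18 in the biotin-negative group and 49 in the Cd40-null group. Of these, 12 of the 18 and all 49 fell in replicate 1 of their group.

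Of the non-classical monocyte markers, Treml4, a receptor of the patrolling monocyte subset, had 0 to 1.12 CPM in biotin-positive libraries (median 0.113) and 0 to 9.11 CPM in biotin-negative libraries (median 3.14). The groups overlapped at the low end, and Treml4 was not called (log2 fold change -3.75 ± 1.42, adjusted p = 0.127), but was called lower in biotin-positive libraries with DESeq2 (adjusted p = 0.0303). Cd300e, an activating receptor of the same subset, had 1 count in the biotin-positive group and 58 in the biotin-negative group, of which 43 were in replicate 3, and was not called (adjusted p = 0.153). Ace, the angiotensin-converting enzyme, ran from 0 to 0.329 CPM in biotin-positive and from 0 to 2.25 CPM in biotin-negative libraries and was not called (adjusted p = 0.404).

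Counted by library, 18 to 26 of the 37 markers had at least 1 count in biotin-positive libraries (mean 23.0 ± 3.10), 29 to 34 in biotin-negative libraries (31.0 ± 1.79), and 35 and 28 in Cd40-null libraries. The biotin groups did not overlap in this count. After all libraries were thinned to the same depth the means were 23.0, 30.8 and 31.5. The number of all genes detected separated the biotin groups too, at 13090 to 13455 in biotin-positive and 14225 to 15742 in biotin-negative libraries. The biotin groups did not overlap for 6 of the 32 tested markers, all of them lower in biotin-positive libraries, against 2.41% of all tested genes that separated in that direction. In the opposite direction 0 markers separated, against 2.6% of all tested genes. The calls of S100a4 and of 11 of the 15 lower markers, all but C1qc, Siglec1, Ms4a7 and Ms4a6d, held in each of the 14 fits that left out a library. Of those 11, C1qb, Cd14, Lyz1 and Ms4a4c lost their calls with voom.

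**Figure D3:**
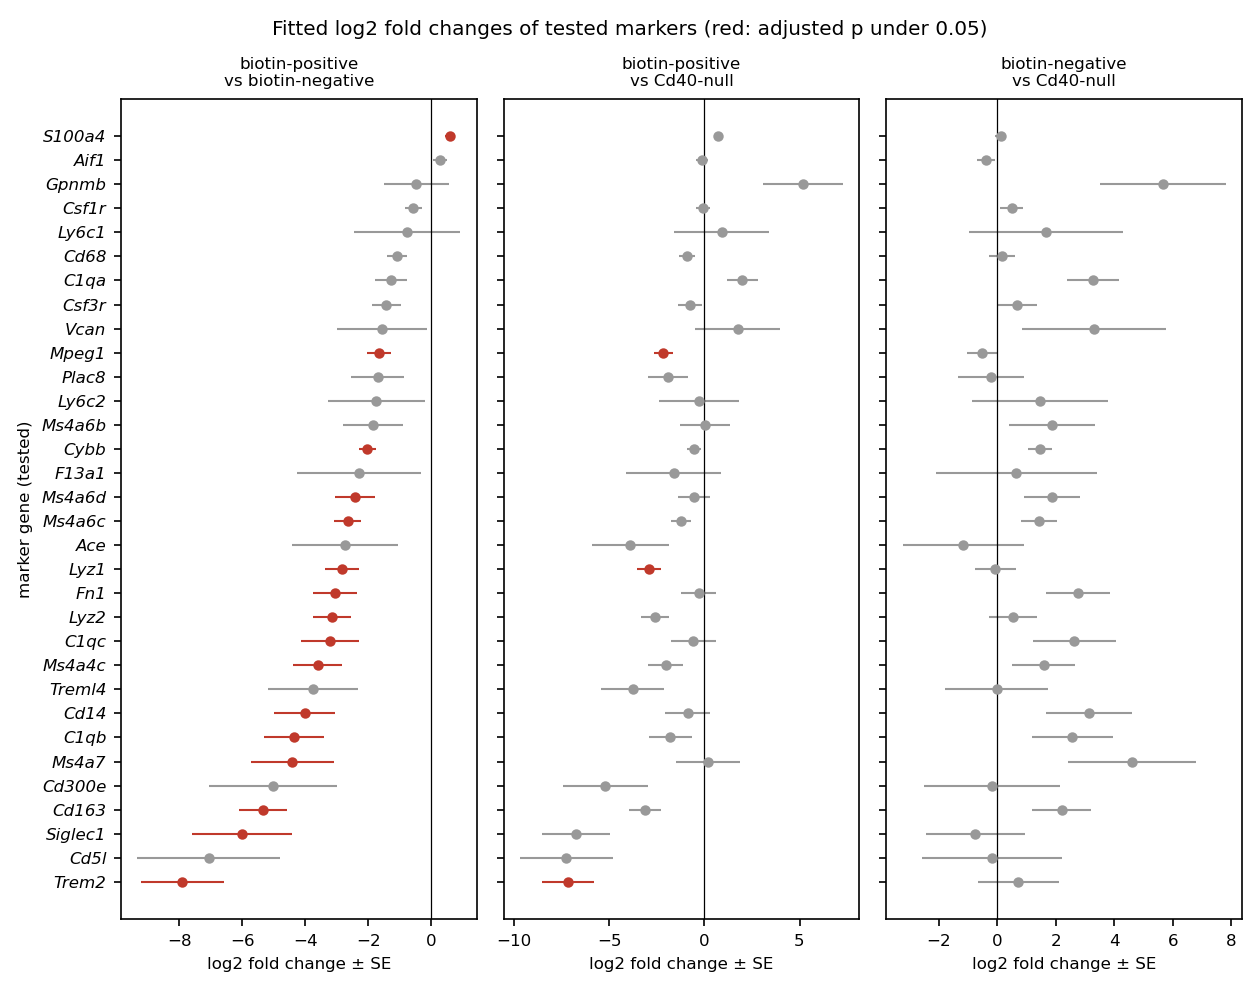
Fitted log2 fold changes (horizontal axes, each panel with its own scale) ± SE of the 32 tested markers in the 3 comparisons, ordered as in the left panel, with red points for an edgeR adjusted p under 0.05. The left panel holds 15 red points below 0 and S100a4 above it, the middle panel 3 and the right panel 0. The fitted values of Trem2 and Cd5l, which had no count in biotin-positive libraries, depend on the fit's small offset and give no size.

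When biotin-positive DCs were set against Cd40-null DCs, the biotin-positive libraries were those already used above, so these results are not independent of the first comparison. Trem2, Lyz1 and Mpeg1 were lower in biotin-positive libraries, 0 markers were higher and 29 of 32 were not called, against 2.27% of all tested genes called (1.05% lower and 1.22% higher). At an unadjusted p under 0.05, 12 markers were lower, against 6.65% of tested genes, and 3 were higher, against 7.16%. DESeq2 called 8 markers, 6 lower and 2 higher, against 5.65% of tested genes.

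Trem2, absent from biotin-positive libraries, was at least 33.6-fold lower there than in Cd40-null libraries (adjusted p = 0.0192). That bound, too, covers counting error only. Lyz1 was 7.44-fold lower in biotin-positive libraries, at 4.68 to 13.1 CPM against 84.6 and 27.5 CPM in Cd40-null libraries (log2 fold change -2.90 ± 0.64, adjusted p = 0.0237). Mpeg1 was 4.46-fold lower in biotin-positive libraries, at 3.86 to 17.9 CPM against 32.5 and 50.6 CPM in Cd40-null libraries (log2 fold change -2.16 ± 0.49, adjusted p = 0.0261). In all 3 the groups were apart, but the Cd40-null group has only 2 libraries. When a single Cd40-null library is left, the fit assumes that it varies like the libraries of the other groups. Without Cd40-null replicate 1 none of the 3 was called (adjusted p 0.0924 for Trem2, 0.492 for Lyz1 and 0.0907 for Mpeg1). Without Cd40-null replicate 2 the calls of Trem2 and Mpeg1 ended (adjusted p 0.0744 and 0.265), and without biotin-positive replicate 2 that of Lyz1 did (adjusted p = 0.0502). When edgeR was fitted to these 2 groups alone, Trem2 and Mpeg1 were not called (adjusted p 0.198 and 0.0801). Lyz1 was not called with voom (adjusted p = 0.0893) or with no filter on low counts (0.0579).

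Of all tested markers, 13 were lower in every biotin-positive library than in both Cd40-null libraries, against 8.07% of tested genes, and 2 were higher, against 7.81%. Those higher were S100a4 and C1qa. S100a4 had 988 to 1377 CPM in biotin-positive libraries against 758 and 694 CPM in Cd40-null libraries, and did not pass the threshold (log2 fold change 0.70 ± 0.21, adjusted p = 0.0981). C1qa had 9.44 to 26.1 CPM in biotin-positive libraries against 6.96 and 1.39 CPM in Cd40-null libraries and did not pass either (log2 fold change 1.99 ± 0.82, adjusted p = 0.275).

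Biotin-negative DCs were also set against Cd40-null DCs, with libraries that both other comparisons used as well. With edgeR 0 of 32 markers were called, against 0.317% of all tested genes (0.274% higher and 0.0422% lower). At an unadjusted p under 0.05, 7 markers were higher in biotin-negative libraries, against 5.75% of tested genes, and 0 were lower, against 3.47%. The 7 were C1qa, Cybb, Gpnmb, Fn1, Ms4a6c, Cd163 and Cd14. DESeq2 called 3 of them, C1qa, Cybb and Gpnmb, higher in biotin-negative libraries, against 1.92% of tested genes. Voom called 1, Cybb, against 0.373% of tested genes, and so did edgeR fitted to these 2 groups alone, against 0.212%.

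C1qa had 8.11 to 93.1 CPM in biotin-negative libraries against 6.96 and 1.39 CPM in Cd40-null libraries (log2 fold change 3.28 ± 0.89, adjusted p = 0.182). Cybb had 82.8 to 127 CPM in biotin-negative libraries against 37.1 and 39.7 CPM in Cd40-null libraries (log2 fold change 1.47 ± 0.41, adjusted p = 0.203). Neither overlapped between the groups. Every biotin-negative library exceeded both Cd40-null libraries for 8 tested markers, against 6.23% of tested genes, and the reverse held for 0, against 4.47%.

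The Cd40-null libraries did not take 1 side for the 15 markers that were lower in biotin-positive than in biotin-negative libraries. Both Cd40-null libraries fell within the biotin-positive range for 5 (Cybb, Fn1, Ms4a6d, C1qc and Ms4a7) and within the biotin-negative range for 6 (Lyz1, Lyz2, Ms4a4c, C1qb, Siglec1 and Ms4a6d). Ms4a6d stands in both counts because the biotin groups overlap. For C1qb, Ms4a4c and Ms4a6d both Cd40-null libraries lay below the biotin-negative median. For Siglec1 they lay above it, and for Lyz1 and Lyz2 on either side. C1qb had 9.29 and 7.18 CPM in Cd40-null libraries, against a biotin-negative median of 54.3 CPM. No share over all genes was computed for these counts. For Cd163 and Trem2 both Cd40-null libraries lay between the biotin groups. The summed level of the 10 tissue macrophage markers was 11.1 to 50.6 CPM in biotin-positive, 50.2 to 246 CPM in biotin-negative and 22.8 to 30.2 CPM in Cd40-null libraries. The summed level of the 7 general mononuclear phagocyte genes was 152 to 346 CPM in biotin-positive, 315 to 1362 CPM in biotin-negative and 423 to 641 CPM in Cd40-null libraries. In the same order, the classical monocyte and phagocyte-recruitment markers, mostly S100a4, summed to 1014 to 1395, 625 to 1367 and 744 to 801 CPM. All 37 markers together summed to 1193 to 1703, 1063 to 2303 and 1199 to 1486 CPM, so the biotin groups overlapped in the total.

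Biotin-negative libraries differed among themselves in these markers. Of the 15 markers lower in biotin-positive libraries, 8 were highest in biotin-negative replicate 6, and 7 were lowest in replicate 5. Replicate 1 was lowest for 4, Lyz1 and Lyz2 among them, yet had the highest Cd163 of all libraries, at 43.5 CPM. Replicate 4 had the highest Lyz2, at 837 CPM, and the lowest Cd163 of its group, at 10.9 CPM. The libraries with most lysozyme were thus not those with most Cd163.

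**Figure D4:**
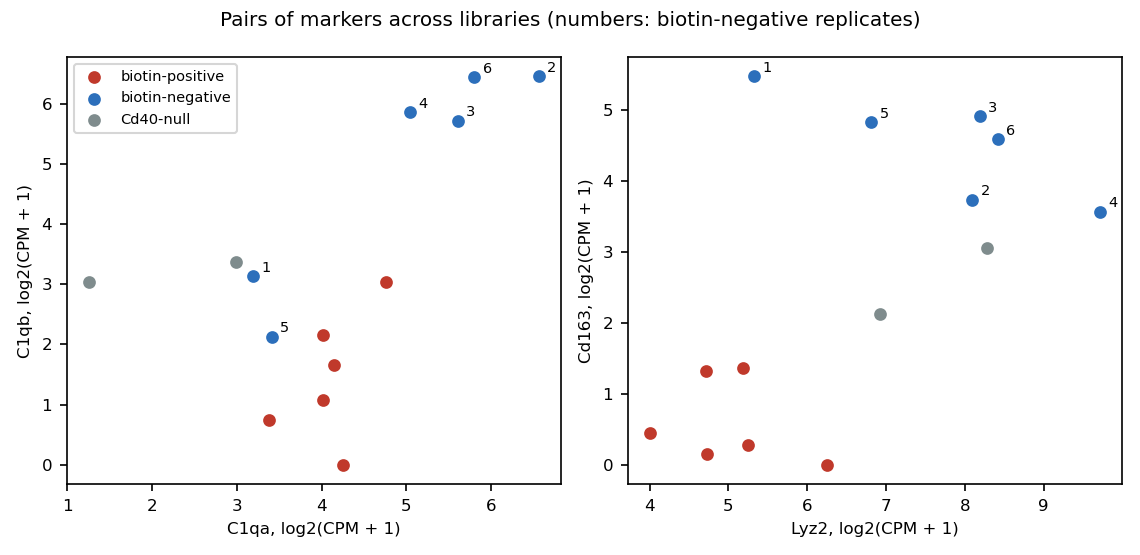
Paired levels in each library as log2(TMM-scaled CPM + 1), with C1qa against C1qb at left and Lyz2 against Cd163 at right, coloured by group and with replicate numbers beside the biotin-negative points. At left, the ratio of C1qa to C1qb in CPM is 3.64 or more in the 5 biotin-positive libraries with C1qb counts and 2.86 or less in biotin-negative libraries. At right, biotin-negative replicate 1 has the highest Cd163 (43.5 CPM) and the lowest Lyz2 of its group (39.1 CPM), and replicate 4 the reverse (10.9 and 837 CPM).

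A further list held 38 genes known from monocytes and macrophages that are not among the markers above, 33 of which were tested. Between biotin-positive and biotin-negative libraries 9 were lower (Ccr2, Emr1, Mrc1, Fcgr3, Axl, Itgam, Ctss, Msr1 and Tgfbi), 2 were higher (Irf8 and Sfpi1) and 22 were not called. Their median log2 fold change was -1.89. Over all tested genes 4.05% were lower and 3.7% higher, with a median of -0.03. These genes passed the same filter on level, Mrc1 with no count in biotin-positive libraries. Their counts and median support nothing by themselves. None of the 33 was called in either comparison with Cd40-null libraries. Ccr2, the chemokine receptor that brings classical monocytes out of the bone marrow, had 0.0709 to 0.394 CPM in biotin-positive libraries (median 0.209) and 0.857 to 63.2 CPM in biotin-negative libraries (median 15.8). The groups did not overlap, and Ccr2 was 108-fold lower in biotin-positive libraries (log2 fold change -6.76 ± 0.92, adjusted p = 0.000189). Ccr2 had 26 counts in all in the biotin-positive group and lay below the filter level of 0.529 CPM in each of its libraries. It was therefore tested only because libraries of other groups were higher, and its fold and p carry that limit.

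Emr1, the older symbol of Adgre1 for the macrophage antigen F4/80, had 8.51 to 27.0 CPM in biotin-positive and 23.5 to 76.3 CPM in biotin-negative libraries and was 3.12-fold lower in biotin-positive libraries (adjusted p = 0.00309). Mrc1, the mannose receptor CD206, had no count in biotin-positive or Cd40-null libraries and 0 to 13.2 CPM in biotin-negative libraries (adjusted p = 0.0122). Fcgr3, an activating Fc receptor, had 0 to 0.920 CPM in biotin-positive and 0.0511 to 33.8 CPM in biotin-negative libraries and was 68.8-fold lower in biotin-positive libraries (adjusted p = 0.0134).

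The 2 genes of that list that were higher encode transcription factors of DCs as well as of monocytes. Irf8 had 300 to 549 CPM in biotin-positive libraries (median 461) and 106 to 242 CPM in biotin-negative libraries (median 202), with no overlap, and was 2.29-fold higher in biotin-positive libraries (adjusted p = 0.000431). Sfpi1, the older symbol of Spi1 for PU.1, had 249 to 388 CPM in biotin-positive and 191 to 304 CPM in biotin-negative libraries and was 1.36-fold higher in biotin-positive libraries (adjusted p = 0.0351).

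Markers of other cells also differed between the biotin groups. For comparison, 4.05% of all tested genes were lower in biotin-positive libraries and 3.7% were higher. Of 10 core DC genes, 5 were lower in biotin-positive libraries (H2-Aa, Cd74, Dpp4, H2-Ab1 and Itgax), with a median log2 fold change of -1.60. Lower calls were thus not particular to the phagocyte markers, of which 15 of 32 were lower. Of 12 genes of migratory mature DCs, 3 were higher (Fscn1, Ccl22 and Il4i1) and Ccl5 was lower, and the list's summed level was 21925 to 28081 CPM in biotin-positive and 15380 to 19758 CPM in biotin-negative libraries. Of 4 tested Langerhans cell genes, Epcam, Cldn1 and Cd207 were higher, with a summed level of 338 to 513 CPM in biotin-positive and 59.2 to 162 CPM in biotin-negative libraries. The part of these lists in the differences of the phagocyte markers was not tested. Of neutrophil genes 2 of 13 were tested and Cxcr2 was lower, while 8 of the 13 had no count in biotin-positive and 3 had none in biotin-negative libraries. Of the 14 T cell, 7 B cell and 3 NK cell genes tested, 0 were called. Their median log2 fold changes were 1.68, 1.04 and 0.53, above 0 and thus towards higher levels in biotin-positive libraries. Spib of 6 plasmacytoid DC genes and Kdr of 6 endothelial and stromal genes were lower in biotin-positive libraries.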

How the data were processed

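Polyadenylated RNA was measured in 14 libraries, 6 biotin-positive, 6 biotin-negative and 2 Cd40-null, grouped by the sample titles. Deposited by the authors were a table of expected counts per gene from RSEM, all whole numbers, and a table with a normalized signal for 10321 genes (25 of the markers), which was used only for an alternative. Per the submitters' processing notes, the tools were RSEM 1.2.8, Bowtie2 2.1.0 and DESeq2 1.16.0, without their roles, and the build was mm10; the gene annotation is not given in the sources used here.

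The expected counts, rounded to whole numbers, were tested with edgeR 4.0.16 under R 4.3.3. Genes were filtered by group with filterByExpr (min.count 10), libraries were scaled by TMM, and all libraries entered a single robust quasi-likelihood fit. Tests between groups were two-sided (glmQLFTest), and a gene was called at a Benjamini-Hochberg adjusted p under 0.05 over all 14217 genes tested. An adjusted p printed with no tool named comes from this test. Levels are TMM-scaled CPM, and levels per length divide by the length of the gene's merged exons in GENCODE vM21. The SE of a log2 fold change is its size over the square root of F. The floor for a group at 0 is 3 counts over the group. Floors and count intervals cover counting error only, because the reads carry no molecular identifiers.

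The markers, the other gene lists and the tests were chosen with earlier results of these data known. Every marker is accounted for. Full values are given for markers called in any comparison and for the 2 of each role with the smallest p among those not called, and up to 4 genes each way are named from the further list.

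Tested on simulated counts with 200 genes changed, the fit of biotin-positive against biotin-negative libraries recovered 26% of 2-fold changes (13628 genes) and 59.5% of 4-fold changes (13664 genes). Alternatives were RLE and upper-quartile scaling, no filter and a stricter filter, no robust option, limma 3.58.1 (voom, and on log2 of the deposited signal with a pseudocount of 1), DESeq2 1.42.0, only the 2 groups compared, a covariate for detected genes, the replicate number as a block, and each library left out in turn.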

Additional observations from a re-analysis of the deposited data

Results flagged for a closer look

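In 67 groups of 6 libraries with counts, the highest value was compared with its nearest neighbour, and in 19 of them the gap, as a share of the whole range, was above the 95% critical value of Dixon for 6 values. For normally distributed values, chance gives at most about 1 in 20 groups. Many of these genes had counts in a few libraries only, where a single positive library is enough. All values are TMM-scaled CPM of the library that stood apart.

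In biotin-positive libraries, Lyz2 stood at 75.3 CPM in replicate 6, against 36.97 CPM in the next library. Ms4a6d stood at 5.21 CPM in replicate 6, Plac8 at 5.66 CPM and Ms4a7 at 1.30 CPM in replicate 5. Replicate 3 was set apart for C1qc (7.36 CPM), Vcan (2.63 CPM), Treml4 (1.12 CPM), Ace (0.329 CPM) and S100a9 (0.0657 CPM). Replicate 2 was set apart for Ly6c1 (1.53 CPM) and S100a8 (0.367 CPM), replicate 4 for F13a1 (1.49 CPM) and replicate 6 for Cd300e (0.0516 CPM).

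In biotin-negative libraries, Lyz1 stood at 138 CPM in replicate 4, against 57.2 CPM in the next library, and Cd5l at 4.36 CPM in the same replicate. Pf4 stood at 7.34 CPM in replicate 2, F13a1 at 6.30 CPM in replicate 6, and Ace at 2.25 CPM and Trem1 at 0.429 CPM in replicate 1.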

How the results depend on the processing

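Between biotin-positive and biotin-negative libraries, 12 to 18 markers and 839 to 1106 genes were called when a library was left out, and 11 to 19 markers with the other settings, except that 0 markers and 11 genes were called with detected genes as a covariate. The sign turned for Ly6c1 (log2 fold change 1.34), F13a1 (3.53), Ace (5.25), Treml4 (0.27) and Aif1 (-0.35) with that covariate. F13a1 ran from -7.67 to 0.38 when a library was left out, above 0 only without biotin-negative replicate 6. None of these genes was called with the covariate or when a library was left out. Treml4 was called lower with DESeq2 (adjusted p = 0.0303). Between biotin-positive and Cd40-null libraries, 0 to 5 markers and 78 to 346 genes were called when a library was left out (0 and 78 without Cd40-null replicate 1, 1 marker without Cd40-null replicate 2, 5 without biotin-negative replicate 1), 8 markers and 803 genes with DESeq2, and 603 genes with voom. Between biotin-negative and Cd40-null libraries the ranges were 0 to 1 markers and 12 to 54 genes. There DESeq2 called 3 markers and 273 genes, voom 1 marker, the fit of only the 2 groups 1 marker and 29 genes, limma on the deposited signal 83 genes and the covariate fit 6 genes. The causes were not tested. Per library, markers with at least 10 counts averaged 19.5 (biotin-positive) and 26.8 (biotin-negative), and the mean number with at least 1 count was 22.4 to 24, 30.4 to 31.4 and, in Cd40-null libraries, 28 to 35 when a library was left out.

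Same-numbered libraries of the biotin groups did not deviate together (correlations -0.0226 to 0.0132), and 1 of 6 matched its own number best. With the replicate number as a block, 12 markers and 891 genes were called between biotin-positive and biotin-negative libraries, 0 markers and 129 genes in the biotin-positive against Cd40-null test, and 19 genes in the biotin-negative against Cd40-null test. Not called with the block were Cd14 (adjusted p 0.0686), Trem2 (0.0591), Siglec1 (0.109) and Ms4a7 (0.0706) in the first, and Trem2 (0.289), Lyz1 (0.0822) and Mpeg1 (0.135) in the second. The part of depth in the lowest markers was not tested. With 2 Cd40-null libraries, the simulated fits recovered 46% and 49.5% of 4-fold changes in the comparisons with that group.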
